A study of Mus musculus with 20 samples.

Results

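The report concerns 6 mouse genes that encode proteins of sperm chromatin or are named with them. They are the protamine genes Prm1, Prm2 and Prm3, the transition protein genes Tnp1 and Tnp2, and H1fnt, a linker histone gene of spermatids. They were chosen by gene symbol and not by a cut on their values, though earlier results of these data were known. All 6 were found among the 23235 genes of the deposited table. The testes of adult C57BL/6 males had been the source of spermatocytes, which were sorted by FACS, and RNA of 500 cells per library was turned into cDNA by Smart-seq2, a protocol that copies whole poly(A) transcripts. The 12 RNA libraries formed 6 groups of 2: pachytene, diplotene and meiosis II cells, each from WT mice and from mice labelled Cxxc1-null. Cxxc1 encodes the CpG-binding subunit of a complex that methylates histone H3 on K4, and the design asked how its loss affects transcription in these stages. The labels name no other allele or agent, and the sources used here do not say how or in which cells Cxxc1 was deleted. Whether both libraries of a group stem from different mice is not stated, so p-values cover only the variation among libraries, which may be technical. The series also lists 8 ChIP libraries for H3K4 trimethylation, which were not analysed here.

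In spermatids the nucleosomes are taken apart and the DNA is packed anew. Histones give way to transition proteins, and these are replaced by protamines, small arginine-rich proteins that condense the sperm nucleus. The messenger RNAs of protamines and transition proteins are known to be made mainly in round spermatids, after meiosis, and to be stored there without translation until elongation. Prm1 encodes protamine 1 and Prm2 a precursor that is processed to protamine 2. Prm3 lies in the same gene cluster but encodes an acidic protein that in mouse was found outside the nucleus. Tnp1 and Tnp2 encode the transition proteins, and H1fnt (H1f7 in RefSeq) encodes a linker histone of the spermatid nucleus. Prm1, Prm2, Prm3 and Tnp2 are on chromosome 16, Tnp1 is on chromosome 1 and H1fnt is on chromosome 15.

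The 100 bases before each start of transcription are shown because the members differed in how they behaved between stages and genotypes. The sequences are RefSeq's for the GRCm38.p6 build, which is not the mm9 build named in the submitters' processing notes. All 6 matched by symbol or synonym, all are on the minus strand, and each is written 5′ to 3′. Capitals mark matches on either strand to TGANNTCA, the cAMP response element with its centre left free, or to TATANA.
Prm1, chr16:10796824-10796923: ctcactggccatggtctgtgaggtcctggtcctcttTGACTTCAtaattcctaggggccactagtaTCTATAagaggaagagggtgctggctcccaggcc
Prm2, chr16:10792106-10792205: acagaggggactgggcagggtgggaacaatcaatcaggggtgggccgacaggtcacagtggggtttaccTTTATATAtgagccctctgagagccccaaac
Prm3, chr16:10790915-10791014: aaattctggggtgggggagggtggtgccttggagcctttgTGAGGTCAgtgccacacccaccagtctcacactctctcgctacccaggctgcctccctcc
Tnp1, chr1:73015900-73015999: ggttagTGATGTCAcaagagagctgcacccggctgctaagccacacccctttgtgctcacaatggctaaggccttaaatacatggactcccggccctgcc
Tnp2, chr16:10788656-10788755: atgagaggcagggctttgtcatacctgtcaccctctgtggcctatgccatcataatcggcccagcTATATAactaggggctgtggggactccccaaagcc
H1fnt, chr15:98257308-98257407: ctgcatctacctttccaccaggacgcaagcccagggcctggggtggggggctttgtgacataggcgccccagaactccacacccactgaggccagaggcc

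Motifs were searched in the whole window from 250 bases before to 50 bases after each start, in the 6 members and in all 32851 windows of the RefSeq table. TGANNTCA matched in Prm1 (first base at -64 from the start), Prm3 (-60) and Tnp1 (-94), and in 14.1% of all windows. The palindromic form TGACGTCA was in none of the 6 and in 1.79% of all windows. TATANA matched in Prm1 (-34), in Prm2 (-31 and -29, overlapping each other) and in Tnp2 (-35), and in 24.7% of all windows. TATAAA, which TATANA includes, was found in Prm2 alone among the 6 and in 13.6% of all windows, and CCAAT in Prm3 alone and in 37.4% of windows. H1fnt held none of these motifs. The CpG dinucleotide, the letters that the CXXC1 protein can bind, occurred once or more in all 6 windows and in 94.6% of all windows, where the median count was 7. Prm1 had 1 CpG, and 14.1% of all windows had 1 or none. Prm2 had 3, Prm3 and Tnp2 had 4, and Tnp1 and H1fnt had 6, each under that median. A match says only that the letters are there, and no match says only that they are not in this window.

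Values are FPKM, fragment numbers corrected for the length of the transcript and the size of the library, as deposited, so that levels of different genes can be set side by side per length. The sources used here give no read depth. Each library had 9838 to 11624 genes at 1 FPKM or more. Cxxc1 itself was at 11.7 to 17.6 FPKM in the 6 WT libraries and at 2.02 to 9.57 FPKM in the 6 Cxxc1-null libraries, below both WT libraries of the stage in each case. Of 15 markers of pachytene spermatocytes, the summed level was 5437 to 9613 FPKM in the pachytene libraries of both genotypes, 2351 to 2763 FPKM in the diplotene ones and 1197 to 1563 FPKM in meiosis II. A pair of libraries stood apart. WT pachytene replicate 2 correlated with the WT diplotene mean at r = 0.955 over the 12956 genes tested, against 0.914 to 0.930 in the other pachytene libraries. Cxxc1-null diplotene replicate 2 correlated with the WT meiosis II mean at r = 0.891, against 0.834 to 0.849 in the other diplotene libraries. Results on the members that rest on either are given with and without them. In bulk libraries fewer cells of a type and less RNA per cell cannot be told apart.

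In WT cells all 6 genes were highest in meiosis II, and 5 of them, all but H1fnt, were lower in both diplotene libraries than in any library of another stage, as were 14.1% of all genes tested. Prm1 was at 1020.4 and 829.5 FPKM in the WT pachytene libraries, 128 and 305 FPKM in diplotene, and 2213 and 3794 FPKM in meiosis II. At that stage it ranked 12 and 5 among all genes. The libraries of the 3 stages did not overlap, with diplotene lowest and meiosis II highest, as in 8.79% of all genes tested. Prm2 was at 489 and 485 FPKM in WT pachytene, 90.9 and 210.0 FPKM in diplotene, and 1424 and 2138 FPKM in meiosis II, in the same order and again without overlap.

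The transition protein genes followed the protamines. Tnp1 was at 460.3 and 341 FPKM in WT pachytene, 54.2 and 112 FPKM in diplotene, and 1136 and 1803 FPKM in meiosis II. Tnp2 was at 181 and 253 FPKM in WT pachytene, 51.0 and 111 FPKM in diplotene, and 1246 and 1625 FPKM in meiosis II. For both genes the libraries of the 3 WT stages did not overlap and stood in the order of Prm1, again as in 8.79% of all genes tested.

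Prm3 and H1fnt started lower in spermatocytes. Prm3 was at 76.3 and 48.3 FPKM in WT pachytene, 20.0 and 39.0 FPKM in diplotene, and 475 and 552 FPKM in meiosis II. H1fnt, at 4.99 and 7.31 FPKM in pachytene and 3.62 and 6.36 FPKM in diplotene, reached 118 and 109.8 FPKM in meiosis II. Its pachytene and diplotene libraries overlapped, and both meiosis II libraries were far above them.

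**Figure D1:**
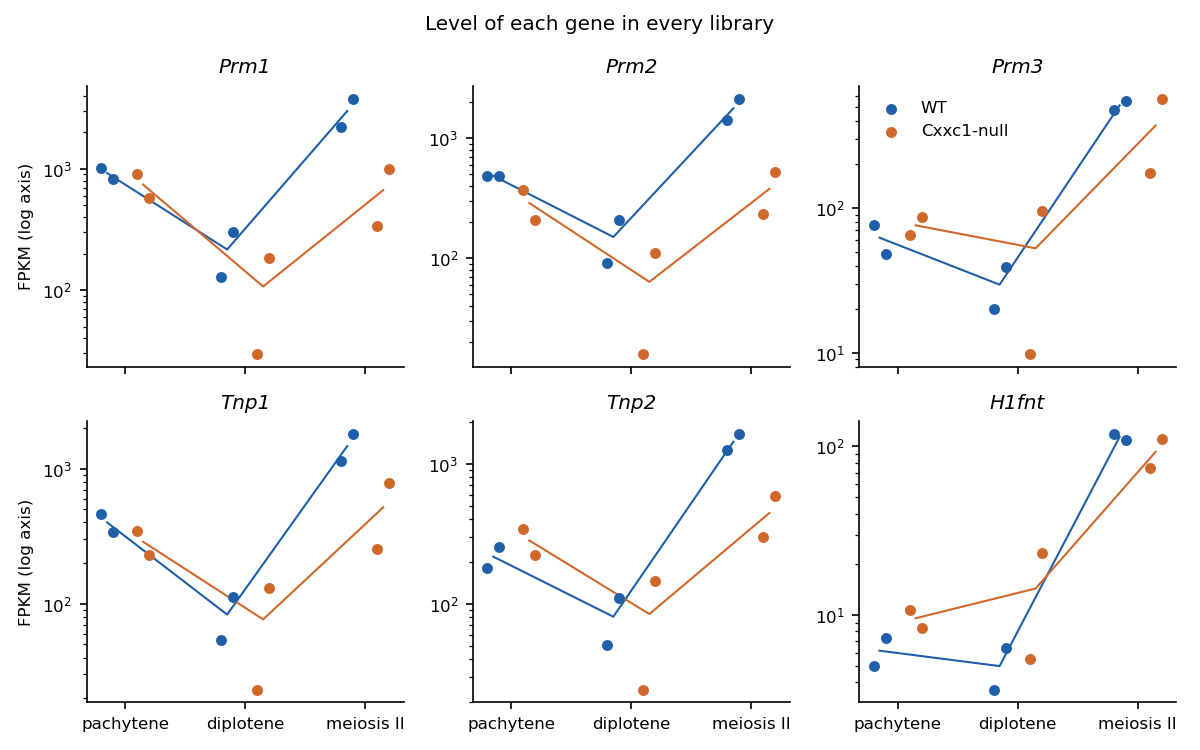
Level of each gene in every RNA library, in FPKM on a log axis, by stage, with WT in blue and Cxxc1-null in orange; points are libraries and lines join the means of the 2 libraries of each group. In meiosis II the Cxxc1-null points of Prm1, Prm2, Tnp1 and Tnp2 lie below both WT points, while those of Prm3 and H1fnt overlap the WT points.

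Differences were tested with limma on log2(FPKM + 1) over the 12956 genes that reached 1 FPKM in at least 2 libraries, which included all 6 members. A gene was called at an adjusted p under 0.05 (Benjamini-Hochberg over all genes tested). From diplotene to meiosis II all 6 genes rose in WT cells, beside 26.1% of all genes tested that were called higher. H1fnt rose by 4.30 ± 0.51 (SE) on the log2 scale (adjusted p = 0.00011), the ratio of the mean FPKM values being 22.9. Tnp2, Tnp1 and Prm3 rose by 4.22, 4.18 and 4.14, Prm1 by 3.87 and Prm2 by 3.65, with adjusted p from 0.00072 to 0.0031 and ratios from 17.8 for Tnp2 to 11.8 for Prm2. The median of the 6 differences was 4.16, and that of all genes tested was 0.02. The 34 spermatid genes outside chromatin, a list of genes known from spermatids, rose in the same step: 31 were called higher, none lower, with a median of 4.11. Of 10 Sertoli cell markers tested, 10 were also called higher in this step (median 3.47). Over the 13 Sertoli markers in the table the summed level was 517 to 689.7 FPKM in WT meiosis II, 9.17 to 17.8 FPKM in WT diplotene and 462 to 564 FPKM in Cxxc1-null meiosis II. Amh and Gata4, which did not pass the filter on low values, were listed at 0 in WT diplotene (both libraries). The part of these other cells in the members' rise was not tested.

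From pachytene to diplotene Tnp1 fell in WT cells, by 2.33 ± 0.74 on the log2 scale (adjusted p = 0.043). It was the one member called, and 17.4% of all genes tested were called lower. Prm1 had a difference of -2.21 (adjusted p = 0.062), Prm2 of -1.81 (0.11), Tnp2 of -1.50 (0.14), Prm3 of -1.09 (0.37) and H1fnt of -0.28 (0.73). With both libraries that stood apart left out, WT pachytene rested on replicate 1 alone. The differences were then -2.36 for Prm1, -1.81 for Prm2, -2.55 for Tnp1, -1.26 for Tnp2, -1.42 for Prm3 and -0.04 for H1fnt. The other library left out, Cxxc1-null diplotene replicate 2, is not in this comparison and bears on it through the shared estimate of the spread. Leaving out any single library of the 4 gave no call. In the spermatid list 6 of 34 genes were called higher and 1 lower in this step, 12 differences were positive and the median was -0.34, that of all genes tested being -0.11. Without both libraries that stood apart, 5 were called higher and 5 lower. Of the 15 pachytene markers 11 were called lower.

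In Cxxc1-null cells 4 of the genes overlapped between pachytene and meiosis II, and the replicates of 2 groups lay far apart. Prm1 was at 909 and 577 FPKM in Cxxc1-null pachytene, 29.5 and 185 FPKM in diplotene, and 337 and 999.5 FPKM in meiosis II. Prm2 was at 369 and 208 FPKM, then 15.8 and 111 FPKM, then 232 and 526 FPKM. For both genes the pachytene and meiosis II libraries overlapped, and diplotene was below them.

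Tnp1 was at 347 and 229 FPKM in Cxxc1-null pachytene, 23.1 and 130.1 FPKM in diplotene, and 254 and 780.3 FPKM in meiosis II. Tnp2 was at 342 and 223 FPKM, then 24.4 and 144 FPKM, then 298 and 591 FPKM. Again pachytene and meiosis II overlapped in both genes.

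Prm3 was at 64.8 and 87.1 FPKM in Cxxc1-null pachytene, 9.73 and 95.5 FPKM in diplotene, and 175 and 569.7 FPKM in meiosis II, with diplotene on both sides of pachytene. H1fnt was at 10.7 and 8.4 FPKM, then 5.52 and 23.2 FPKM, then 74.7 and 111 FPKM. Both genes were highest in the meiosis II libraries, without overlap with the earlier stages.

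In the Cxxc1-null cells 4 members were called lower in diplotene than in pachytene, where 17.4% of all genes tested were. Their log2 differences were -3.27 for Prm1 (adjusted p = 0.015), -2.68 for Prm2 (0.027), -2.33 for Tnp1 (0.040) and -2.19 for Tnp2 (0.040). Prm3 (-1.24) and H1fnt (0.26) were not called. With both libraries that stood apart left out, Cxxc1-null diplotene rested on replicate 1 alone, the lower library for every member. The differences then ran from -4.57 for Prm1 to -0.69 for H1fnt. From diplotene to meiosis II all 6 rose, by 2.79 for Tnp2 to 3.30 for Prm3 (adjusted p from 0.0014 to 0.012), beside 25.3% of all genes tested that were called higher. In this step 1 member was called without Cxxc1-null diplotene replicate 1, beside 31.0% of all genes in either direction, and 1 without Cxxc1-null meiosis II replicate 2, beside 31.3%. With both libraries that stood apart left out, the 6 rises were 3.82 to 4.88.

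Meiosis II was also set against pachytene, a contrast added after the members' values were seen. In WT cells H1fnt (4.03), Prm3 (3.05), Tnp2 (2.73) and Tnp1 (1.85, adjusted p = 0.049) were called higher, as were 33.9% of all genes tested. Prm2 (1.84, adjusted p = 0.056) and Prm1 (1.65, adjusted p = 0.087) were not, although their libraries did not overlap. All 6 were called after quantile normalization, after rescaling each library to 1 total and in a separate fit of the 4 libraries. With a pseudocount of 0.1, without a filter on low values and with libraries scaled to a common median, 3 were called. Leaving out 1 library at a time moved the difference of Tnp1 from 1.518 to 2.185. The number of all genes called also changed between these fits. In Cxxc1-null cells 32.2% of all genes tested were called higher, and among the members only H1fnt was, at 3.13 (adjusted p = 0.00055). Prm3 was at 2.06 (0.059), Tnp1 at 0.66, Tnp2 at 0.60, Prm2 at 0.33 and Prm1 at -0.32 (0.74).

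In meiosis II Prm1, Prm2, Tnp1 and Tnp2 had lower means in Cxxc1-null than in WT cells, and none of these differences passed the test at that stage. The Cxxc1-null mean of Prm1, 668 ± 469 FPKM (SD, n = 2), was 22.2% of the WT mean of 3004 ± 1117 FPKM. For Prm2 the means were 379 ± 207 and 1781 ± 505 FPKM, or 21.3%. Both had a log2 difference of -2.32 (SE 0.78 and 0.77, adjusted p = 0.091 and 0.085). Tnp2, at 445 ± 207 against 1436 ± 268 FPKM, was at 31.0% of WT, with a log2 difference of -1.76 ± 0.70 (adjusted p = 0.14). Tnp1, at 517 ± 372 against 1470 ± 472 FPKM, was at 35.2%, with -1.68 ± 0.74 (adjusted p = 0.18). In these 4 genes both Cxxc1-null libraries were below both WT libraries, as in 26.4% of all genes tested, and the unadjusted p was under 0.05, as in 3385 of the 12956 genes. Leaving out 1 meiosis II library at a time moved the difference from -3.10 to -1.54 for Prm1, from -2.90 to -1.73 for Prm2, from -2.49 to -0.87 for Tnp1 and from -2.25 to -1.27 for Tnp2. The values nearest to 0 were those without Cxxc1-null replicate 1.

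Prm3 and H1fnt were closer to WT in meiosis II. Prm3 was at 372 ± 279 against 513 ± 54.3 FPKM (72.5% of WT; log2 difference -0.70 ± 0.86, adjusted p = 0.66), and Cxxc1-null replicate 2 was above both WT libraries. H1fnt was at 93.0 ± 25.8 against 114 ± 5.97 FPKM (81.5%; -0.32 ± 0.51, adjusted p = 0.75), and its libraries overlapped. Leaving out Cxxc1-null replicate 1 put Prm3 at 0.15, and leaving out replicate 2 put it at -1.55. At this stage limma called 0 of 6 members, 10.5% of all genes tested in either direction and 4.35% lower. The median of the members was -1.72 and that of all genes was 0.02. The members called became 3 (Prm1, Prm2 and Tnp2) when the 4 meiosis II libraries were fitted alone or when both libraries that stood apart, neither of them from meiosis II, were left out, because both fits change the estimate of the spread. Over the whole table fewer genes were called in the fit of the 4 libraries alone than in the main fit. Without both libraries that stood apart more were called. Leaving out any 1 meiosis II library gave no call of a member. Such a fit leaves 1 library in a group, and fewer of all genes were then called than in the main fit. Whether the lack of calls there was specific to the members was not tested.

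**Figure D2:**
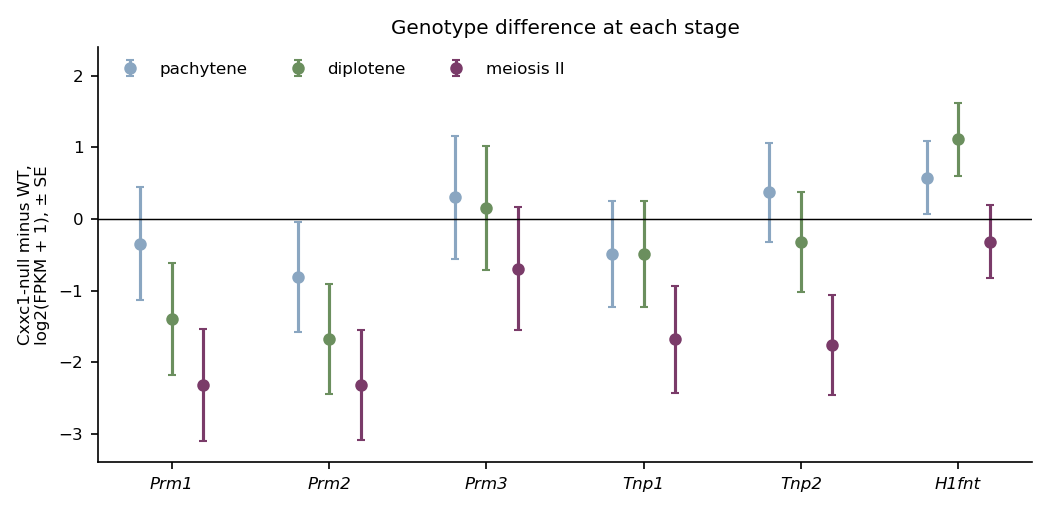
Difference between Cxxc1-null and WT of each gene at each stage, on the log2(FPKM + 1) scale; points are limma estimates and bars are ± 1 SE, with 2 libraries per group. Prm1 and Prm2 in meiosis II are both at -2.32, and the bars of Prm3 and H1fnt in meiosis II cross 0.

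In pachytene and in diplotene 0 of 6 members were called with limma, none had an unadjusted p under 0.05, and 0.355% and 0.787% of all genes tested were called (1388 and 1747 genes had an unadjusted p under 0.05). In pachytene the differences ran from -0.81 ± 0.77 for Prm2 to 0.57 ± 0.51 for H1fnt, 3 of them positive and 3 negative, with a median of -0.02. Prm2 was lower in both Cxxc1-null libraries and H1fnt was higher in both, and the other 4 genes overlapped. Of all genes tested 37.4% did not overlap between the genotypes at this stage. In diplotene Prm2 was at -1.68, Prm1 at -1.40, Tnp1 at -0.49, Tnp2 at -0.33, Prm3 at 0.15 and H1fnt at 1.11, and every gene overlapped between the genotypes. These values moved with single libraries of either genotype, that of H1fnt from 0.16 to 2.06 leaving out 1 at a time. The lack of calls in diplotene did not hold in every such fit. After leaving out both libraries that stood apart, Prm1 was at -2.70, Prm2 at -3.05, Tnp1 at -1.71, Tnp2 at -1.59, Prm3 at -1.43 and H1fnt at 0.16, with no call.

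Averaged over the stages, Prm2 was lower in Cxxc1-null cells, by 1.60 ± 0.44 on the log2 scale (adjusted p = 0.035), below WT at each of the 3 stages. It was the only member called, beside 16.7% of all genes tested called in either direction and 5.13% called lower. The fit took the libraries of a genotype as independent, though same-numbered ones deviated together between its stages. Prm1 was at -1.35 ± 0.45 (adjusted p = 0.068), Tnp1 at -0.89 ± 0.43 (0.18), Tnp2 at -0.57 ± 0.40 (0.36), Prm3 at -0.08 ± 0.50 (0.93) and H1fnt at 0.45 ± 0.30 (0.32). Leaving out both libraries that stood apart left 1 library each in WT pachytene and Cxxc1-null diplotene. Prm2 was then at -2.06, Prm1 at -1.84, Tnp1 at -1.37, Tnp2 at -0.91, Prm3 at -0.72 and H1fnt at 0.22. The call of Prm2 was lost when genes of low level were kept in the test and when 8 of the 12 libraries were left out one at a time.

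Whether the genotype difference changed between stages was tested as an interaction. From pachytene to meiosis II it changed by -2.13 ± 0.99 for Tnp2 (adjusted p = 0.41), -1.97 ± 1.11 for Prm1 (0.50), -1.51 ± 1.08 for Prm2 (0.60), -1.19 ± 1.05 for Tnp1 (0.68), -1.0 ± 1.22 for Prm3 (0.79) and -0.89 ± 0.73 for H1fnt (0.65). All 6 estimates were negative and 0 were called. With limma 0 of 6 were also called for the changes from pachytene to diplotene and from diplotene to meiosis II, and no member had an unadjusted p under 0.05 in any of the 3. Few genes of the whole table were called: 0.0309% for pachytene to meiosis II, 0.0232% for pachytene to diplotene and 0.054% for diplotene to meiosis II. A loss confined to meiosis II was thus not shown for any member. The stage and genotype comparisons share libraries, so their values are not independent of each other.

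Set in order of level, the 6 groups began with WT meiosis II for every gene. For Prm1 the order was WT meiosis II, WT pachytene, Cxxc1-null pachytene, Cxxc1-null meiosis II, WT diplotene and Cxxc1-null diplotene, with means of 3004, 925, 743, 668, 216 and 107 FPKM. WT pachytene, Cxxc1-null pachytene and Cxxc1-null meiosis II overlapped in turn, as did the diplotene groups. For Prm2 the Cxxc1-null meiosis II group (379 FPKM) lay between WT pachytene (487 FPKM) and Cxxc1-null pachytene (289 FPKM), and only WT meiosis II was separated from its neighbour in the order. Tnp1 and Tnp2 had Cxxc1-null meiosis II second, at 517 and 445 FPKM, overlapping the pachytene group next to it, and the diplotene groups were last and apart from pachytene. For Prm3 and H1fnt the meiosis II groups of both genotypes were on top and overlapped, and all the other groups were under 100 FPKM in every library.

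Ratios between members within a library do not depend on how the library was scaled. The ratio of Prm1 to Prm2 stayed between 1.41 and 2.78 in all 12 libraries, while Prm1 itself spanned 29.5 to 3794 FPKM. The ratio of Prm1 to Tnp1 was 2.37 and 2.72 in WT diplotene against 1.28 and 1.42 in Cxxc1-null diplotene, and 1.95 and 2.1 in WT meiosis II against 1.32 and 1.28 in Cxxc1-null meiosis II. In pachytene it was 2.22 and 2.44 in WT and 2.62 and 2.53 in Cxxc1-null cells. So the Cxxc1-null libraries had less Prm1 for their Tnp1 in both later stages, without overlap, and not in pachytene.

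The ratio of Prm3 to Prm1 moved the other way. It was 0.156 and 0.128 in WT diplotene against 0.329 and 0.518 in Cxxc1-null diplotene, and 0.215 and 0.145 in WT meiosis II against 0.519 and 0.570 in Cxxc1-null meiosis II. The ratio of Tnp1 to Tnp2 was between 0.854 and 1.35 in 11 libraries and 2.54 in WT pachytene replicate 1. These ratios are given as a description, with no test. The 6 genes together took 0.959% and 1.38% of all FPKM in the WT meiosis II libraries and 0.197% and 0.427% in the Cxxc1-null ones.

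**Figure D3:**
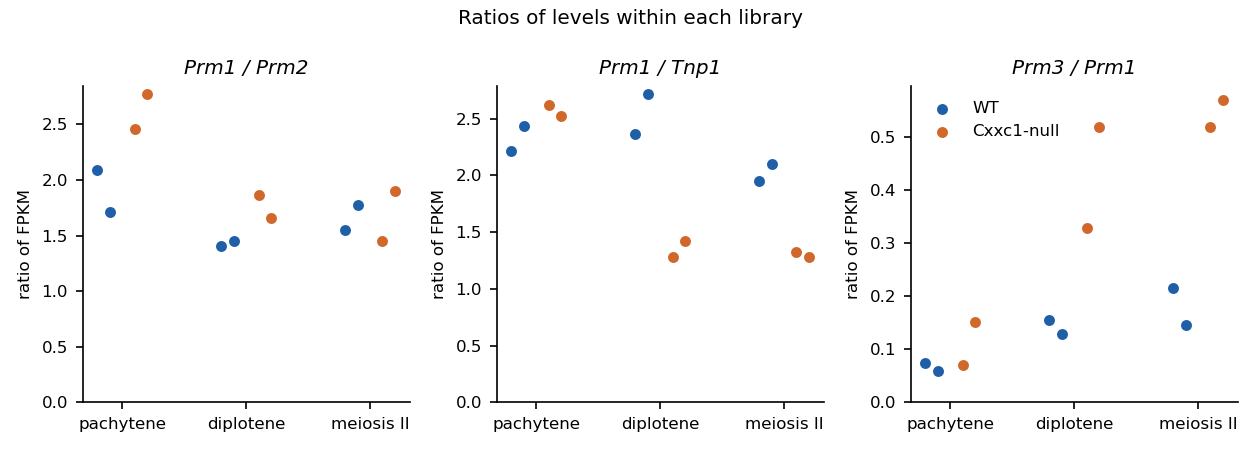
Ratios of FPKM between members within each library, by stage, for Prm1 to Prm2, Prm1 to Tnp1 and Prm3 to Prm1, with WT in blue and Cxxc1-null in orange; each point is 1 library. In diplotene and meiosis II the Cxxc1-null points are lower than WT for Prm1 to Tnp1 (1.28 to 1.42) and higher for Prm3 to Prm1 (0.329 to 0.570).

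In diplotene of both genotypes and in Cxxc1-null meiosis II the difference between replicates was itself shared by the members. Between the Cxxc1-null diplotene libraries all 6 were higher in replicate 2, from 4.21 times for H1fnt to 9.82 times for Prm3. In the same pair of libraries 33 of the 34 spermatid genes outside chromatin were higher in replicate 2, with a median difference of 1.71 on the log2 scale, while the median of all genes tested was 0.07. Their summed level was 1841 FPKM in replicate 1 and 3012 FPKM in replicate 2. In Cxxc1-null meiosis II all 6 members were again higher in replicate 2, from 1.49 times for H1fnt to 3.26 times for Prm3, and 32 of the 34 list genes were higher there (7057 and 10981 FPKM summed). WT diplotene showed the same direction: all 6 members were higher in replicate 2, from 1.76 times for H1fnt to 2.38 times for Prm1. There 28 of the 34 list genes were higher in replicate 2. In the WT meiosis II libraries the members differed by 1.08 to 1.71 times, and H1fnt was higher in replicate 1. In both pachytene groups the members went in both directions. The part of spermatid RNA in the members' values at any stage was not tested.

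**Figure D4:**
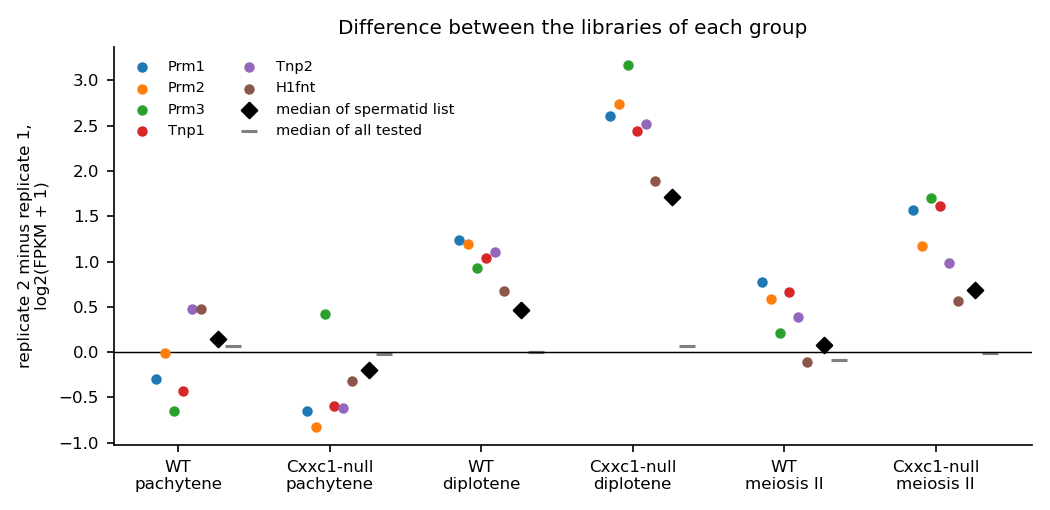
Difference between the 2 libraries of each group (replicate 2 minus replicate 1, log2(FPKM + 1)) for each gene in colour, the median of the 34 spermatid genes outside chromatin as a black diamond and the median of all genes tested as a grey bar. In Cxxc1-null diplotene the members lie between 1.90 and 3.17, above the list's median of 1.71, and in both pachytene groups they lie on both sides of 0.

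In meiosis II 0 of the 34 spermatid genes outside chromatin were called between genotypes, and no test compared them with the members. The list's summed level was 8368 and 8762 FPKM in the WT libraries and 7057 and 10981 FPKM in the Cxxc1-null ones, with a median log2 difference of -0.06 over its 34 genes, 15 of them positive and 0 called in either direction. The largest shortfalls by p in the list at this stage were those of Tssk6, a kinase of spermatids (-1.68 ± 0.50, adjusted p = 0.059), and Spem1, a gene of spermatid maturation (-1.80 ± 0.59, adjusted p = 0.084). WT cells had 69.4 ± 5.97 FPKM of Spem1, and Cxxc1-null cells had 20.1 ± 8.50 FPKM. Prss21 (-0.75, adjusted p = 0.080) and Hspa1l (-1.21, 0.094) were next by p. In pachytene and diplotene 28 and 30 of the 34 genes had positive differences, with medians of 0.62 and 0.93, and none was called. Averaged over stages 9 were called higher and 1 lower. With both libraries that stood apart left out, the diplotene median was 0.12, with 23 positive, and 5 genes were called higher and 3 lower averaged over stages; 3, Tssk6 and Spem1 among them, were then called lower in meiosis II. Averaged over stages, with no library left out, the sperm calcium channel genes Catsper3 (1.32 ± 0.28, adjusted p = 0.012) and Catsper4 (0.92 ± 0.21, 0.018) rose. So did the acrosomal gene Spaca1 (1.16 ± 0.26, 0.016), and Prss21, a serine protease gene of sperm, fell by 0.60 ± 0.14 (0.018). With both of those libraries left out Catsper3 was at 0.98, Catsper4 at 0.82 and Spaca1 at 0.80, all called, and Prss21 at -0.59 was not (adjusted p = 0.060).

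Among linker histones and testis histone variants, 14 of 20 genes in the table were tested. In meiosis II 1 was called lower and none higher (median -0.07). This was Hist1h2aa, the testis form of H2A, which fell by 1.59 ± 0.40 (adjusted p = 0.033), from 2.62 ± 0.66 FPKM in WT to 0.214 ± 0.303 FPKM. Both levels are low, and the Cxxc1-null mean is under the 1 FPKM used for the filter. Averaged over stages 2 were lower, Hist1h2aa (-1.30, adjusted p = 0.0059) and Hist1h1t, the linker histone of spermatocytes (-0.70 ± 0.18, adjusted p = 0.027), and none was higher. After leaving out both libraries that stood apart, Hist1h2aa was called (-1.44) and Hist1h1t was not (adjusted p = 0.081), and in meiosis II Hist1h2ba was called as well. Hils1, another linker histone gene of spermatids, was not called averaged over stages (1.01 ± 0.36, adjusted p = 0.082). Its Cxxc1-null and WT means were 106 ± 3.63 and 37.3 ± 4.76 FPKM in pachytene and 78.4 ± 74.6 and 22.7 ± 9.61 FPKM in diplotene. In meiosis II they were closer, at 554 ± 275 and 467.5 ± 24.6 FPKM. Also not called were, in meiosis II, Hist1h1t (-0.94, adjusted p = 0.088), Hist1h2ba (-0.79, 0.14) and H2afv (0.58, 0.17), and, averaged over stages, H1fx (-0.76, 0.16). From diplotene to meiosis II in WT cells 3 of the 14 rose and 5 fell.

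Of 19 factors of the exchange of histones for protamines, 0 were called by limma between genotypes in meiosis II or averaged over stages (medians -0.35 and -0.14). By p the first in meiosis II were Sirt1, a deacetylase (-0.83 ± 0.25, adjusted p = 0.066), and Chd5, a chromatin remodeller of spermatids (-0.75 ± 0.24, adjusted p = 0.077), with 6.72 ± 1.81 FPKM in the WT and 3.54 ± 0.66 FPKM in the Cxxc1-null group. Epc1 (-0.53, adjusted p = 0.17) and Kdm3a (-0.55, 0.18) came next. Averaged over stages Cdyl was at 0.83 (adjusted p = 0.0502), Sirt1 at -0.44 (0.067), Epc1 at -0.36 (0.087) and Hspa2 at -0.44 (0.099). In WT cells 5 of the 19 rose and 5 fell from diplotene to meiosis II.

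Of 14 transcription factors of the spermatid program, 1 was called lower in meiosis II and none higher. This was Mybl1, an activator of meiotic genes, with 8.28 ± 1.16 FPKM in the WT and 3.47 ± 0.17 FPKM in the Cxxc1-null group (-1.05 ± 0.28, adjusted p = 0.039). Averaged over stages 2 rose and 1 fell. Taf7l, a germ cell form of a TFIID subunit, rose by 0.88 ± 0.18 (adjusted p = 0.012), and Fhl5, a partner of the activator CREM, rose by 1.06 ± 0.32 (0.046). Gtf2a1l, a germ cell form of a TFIIA subunit, fell by 0.37 ± 0.11 (0.044). Without both libraries that stood apart, Taf7l was the one called (0.77), and it was then also called in meiosis II, while Fhl5 was at 0.57 (adjusted p = 0.11) and Gtf2a1l at -0.33 (adjusted p = 0.13). In meiosis II Taf7l (1.12, adjusted p = 0.053), Gtf2a1l (-0.38, 0.24) and Creb1 (0.38, 0.28) were not called, nor was Mybl1 averaged over stages (-0.46, 0.074). From diplotene to meiosis II in WT cells 6 rose and 1 fell.

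Of 20 genes for the storage and translation of protamine messenger RNA, the Cxxc1-null cells of meiosis II had 3 that were called higher and 1 that was called lower. The RNA-binding protein genes Celf1 (1.22 ± 0.20, adjusted p = 0.0061), Tsn (1.08 ± 0.19, 0.0088) and Elavl1 (0.90 ± 0.17, 0.012) rose. Tsn had 7.91 ± 0.34 FPKM in the WT and 17.9 ± 1.28 FPKM in the Cxxc1-null group, and Elavl1 at 23.1 ± 0.67 and 44.2 ± 1.59 FPKM. Khdrbs3, a splicing regulator, fell by 0.90 ± 0.20 (0.020), from 66.1 ± 4.78 to 35.0 ± 3.22 FPKM. Averaged over stages 3 rose and 2 fell, among them the same 4 genes: Khdrbs3 at -0.66, Tsn at 0.53, Elavl1 at 0.48 and Celf1 at 0.46 (adjusted p from 0.0055 to 0.024). With both libraries that stood apart left out, Khdrbs3 and Elavl1 were called, and Tsn (adjusted p = 0.053) and Celf1 (0.057) were not. In the earlier WT stages Tsn was at 85.2 ± 14.3 FPKM (pachytene) and 30.8 ± 0.10 FPKM (diplotene). In pachytene and in diplotene none of the genes in these 5 lists was called between genotypes.

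Over the 12 libraries the members' log2 values moved together to different degrees. These correlations describe libraries that share stages and replicates, and no test is attached to them. Prm1 and Prm2 had r = 0.987, Prm1 and Tnp1 0.974, and Tnp1 and Tnp2 0.972. H1fnt was closest to Prm3 (0.910) and farthest from Prm1 (0.562). Among all genes tested, those most like Prm1 were 1700015G11Rik (0.977), 1700027A15Rik (0.974) and 1700042G07Rik (0.969), and those most like Prm2 were 1700011F03Rik (0.967), 1700027A15Rik (0.961) and 1700080E11Rik (0.957). Tnp1 was followed by 4931407G18Rik (0.983), the table's symbol for Cabs1, 1700011F03Rik (0.981) and 1700042G07Rik (0.980). Tnp2 was followed by 1700011F03Rik (0.979), Spem1 (0.970) and 4931407G18Rik (0.969). For Prm3 they were 1700052I22Rik (0.987), 1700026L06Rik (0.984) and Ubl4b (0.984), and for H1fnt Csnka2ip (0.997), the spermatid kinase gene Tssk2 (0.996) and BC048671 (0.996).

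Genes next to the members were looked up to see whether they shared the pattern. The neighbours are by order in the GRCm38.p6 table, 3 on either side, and Gm4262, next to the cluster, did not pass the filter on low values. Beside the chromosome 16 cluster, Dexi, Clec16a, Socs1 and Litaf had group means of at most 10.02 FPKM, far below the cluster. Litaf rose from 0.19 FPKM in WT diplotene to 2.64 FPKM in meiosis II (log2 difference 1.61, adjusted p = 0.0015), so it shared the rise at a low level. Dexi, Clec16a and Socs1 were not called in that step. Rmi2, a gene of DNA repair that the table lists as A630055G03Rik, went from 39.4 FPKM in WT pachytene to 11.3 FPKM in diplotene (log2 difference -1.68, adjusted p = 0.0034) and was at 9.87 FPKM in meiosis II, so it shared the fall but not the rise. None of the 6 neighbours of H1fnt, 5 of them olfactory receptor genes, passed the filter on low values.

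The gene next to Tnp1, 1700027A15Rik, is annotated as a long noncoding RNA and followed the course of the members. It was at 130.8 and 75.5 FPKM in WT pachytene, 11.5 and 19.0 FPKM in diplotene and 166 and 222 FPKM in meiosis II. In Cxxc1-null cells it was at 52.6 and 39.7 FPKM, then 1.87 and 12.2 FPKM, then 20.7 and 39.5 FPKM. It fell from pachytene to diplotene in WT cells by 2.67 on the log2 scale (adjusted p = 0.012) and rose by 3.61 to meiosis II (adjusted p = 0.00087). In meiosis II it was lower in Cxxc1-null than in WT cells (log2 difference -2.70, adjusted p = 0.022), so it passed the test that Tnp1 (-1.68) did not. The sources used here do not say whether counting used strand, and reads that this gene shares with a neighbour could not be told apart. Igfbp2, also near Tnp1, fell from 2.46 FPKM in WT pachytene to 0.059 FPKM in diplotene (-1.71, adjusted p = 0.00067). It was not called from diplotene to meiosis II (0.20, adjusted p = 0.38). Rpl37a was called in neither step in WT cells, and Igfbp5, Pinc and D530049I02Rik did not pass the filter on low values.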

How the data were processed

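The authors deposited 1 table of FPKM values for 23235 genes in 12 RNA libraries. TopHat2 2.1.1, Cufflinks 2.2.1 and the mm9 build are named in the submitters' processing notes, with no role for each. FPKM are not read counts, and the sources used here state no depth, so no count test was run and the precision rests on 2 libraries per group. Libraries were grouped by their titles. From the values, log2(FPKM + 1) was computed for the 12956 genes with at least 1 FPKM in 2 libraries. One mean per group was fitted with limma 3.58.1 in R 4.3.3 (moderated variances with a trend, 6 residual degrees of freedom), with p-values adjusted by Benjamini-Hochberg over all genes tested. A fold change on this scale understates that of low genes. The fit was checked on simulated data.

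The members and the 10 gene lists (5 pathway, 5 marker) were chosen with earlier results of these data known. Of their 175 symbols 171 were in the table. All 6 members are named, and from each pathway list up to 4 genes with the smallest p in meiosis II and averaged over stages. Likeness is by Pearson's r, 3 genes per member, and neighbours are 3 per side. Of the marker lists not given elsewhere, spermatogonial markers summed to 7.52 to 47.1 FPKM per library and peritubular, endothelial and blood markers to 3.69 to 21.3 FPKM. Leydig markers summed to 9.25 to 270.3 FPKM, with the highest value in WT meiosis II replicate 1, against 47.5 FPKM in replicate 2 of that group. Alternatives were another pseudocount (0.1), filters of 5 FPKM or none, other scalings, a replicate block, separate fits and leaving out libraries, the last applied to the pathway lists after seeing the data. RefSeq gave names and promoters. ChIP libraries were not analysed here.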

Additional observations from a re-analysis of the deposited data

How the results depend on the processing

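With 2 libraries per group, single libraries moved many of the calls. The counts of members are given without the number of all genes called in the same fit, which also changed. Whether a moved count was specific to the members was not tested. All 6 rises from diplotene to meiosis II in WT cells were called under every alternative run, and no member was called for a change of the genotype difference under any. In meiosis II, where 0 members were called between genotypes, quantile normalization gave 2, a separate fit of the 4 libraries 3, and leaving out both libraries that stood apart 3. Averaged over stages, where 1 was called, it was 0 without a filter on low values, 2 with quantile normalization, 2 after rescaling each library to 1 total, 3 without both libraries that stood apart, and 0 to 4 leaving out 1 library at a time, 4 being without Cxxc1-null diplotene replicate 2. In diplotene the genotype difference of H1fnt ran from 0.16 to 2.06 leaving out 1 library.

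Of the steps from pachytene to diplotene, the WT count of 1 became 0 without a filter, 4 in a separate fit, 3 without both libraries that stood apart and 0 to 0 leaving out 1 library. The Cxxc1-null count of 4 became 1 without a filter, 2 after rescaling, 1 in a separate fit and 0 to 5 leaving out 1 library. From diplotene to meiosis II the Cxxc1-null count of 6 ran from 1 to 6. From pachytene to meiosis II the WT count of 4 ran from 2 to 3 leaving out 1 library (2 without WT pachytene replicate 2) and was 6 with quantile normalization, 6 after rescaling and 6 in a separate fit, and the Cxxc1-null count of 1 ran from 1 to 2 and was 2 after rescaling, 2 in a separate fit and 2 without both libraries that stood apart.

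Estimates not called changed sign with libraries of both genotypes. Leaving out 1 library at a time, the diplotene genotype difference ran from -1.43 to 1.74 for Prm3 (-1.43 also without both libraries that stood apart), from -1.71 to 0.73 for Tnp1 and from -1.59 to 0.93 for Tnp2. The mean over stages of Prm3 ran from -0.61 to 0.45. In Cxxc1-null cells the step from pachytene to diplotene ran from -0.69 to 1.21 for H1fnt (-0.69 without both libraries that stood apart) and from -2.83 to 0.34 for Prm3, and pachytene to meiosis II from -0.15 to 1.47 for Tnp1. Except for the libraries left out, the cause was not tested. Scaling moved the median of all genes by -0.25 to 0.21 on the log2 scale where it moved it by over 0.1.

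The replicate numbers were not taken to pair the samples: the labels name no shared animal, and same-numbered libraries deviated together (r over 0.1) in 11 of 15 pairs of groups, all those within a genotype included, with r from -0.25 to 0.42. A fit with the replicate number as a block called 1 member in meiosis II (Prm1, adjusted p = 0.049), 2 averaged over stages (Prm1 and Prm2), 2 for WT pachytene to diplotene, 5 for WT pachytene to meiosis II and 2 for Cxxc1-null pachytene to meiosis II. With the stages of a genotype joined by replicate number, 1 was called averaged over stages and Prm1 was not.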
